A study of Homo sapiens with 3 samples.

Results

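The genes described here handle extracellular adenosine at the cell surface: NT5E, which makes it from AMP, the ectonucleotidases ENTPD1, ENTPD2 and ENTPD3, the adenosine receptors ADORA1 and ADORA2B, the degrading and recycling enzymes ADA and ADK, the ADA-binding surface protein DPP4 and the transporter SLC29A1. They were chosen by name with the treated-minus-untreated differences of these arrays already known, NT5E being the member that stood out, so those differences are given as a description. A fit over all genes is given once, and nothing about the members is read from it. The members are the 24 probe sets that name exactly 1 gene, that gene being one of these 10, out of 44994 such probe sets for 18132 genes. Each gene is represented by its brightest probe set, the one with the highest mean over the arrays, and its other probe sets are given beside it.

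The measurements come from FaDu, an established human cell line derived from a squamous carcinoma of the hypopharynx. The untreated group is 2 arrays from cells that had been given distilled water, and the treated group is 1 array from cells that had been kept for 48 h in medium with 10 µg/ml of NSC-631570, an extract of greater celandine (Chelidonium majus). All cultures shared RPMI medium with fetal calf serum. The labels name no separate cultures, so the untreated spread may be technical, and the treated array has no replicate. Signals are log2 values as deposited, so a difference of 1 is a 2-fold difference.

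Adenosine outside the cell is made mostly by a surface relay. ENTPD enzymes strip phosphates from ATP and ADP, and NT5E (CD73), an enzyme held to the membrane by a lipid anchor, takes the last phosphate from AMP. The adenosine formed can bind G protein-coupled receptors, enter the cell through equilibrative transporters, be deaminated to inosine by ADA or, inside the cell, be phosphorylated back to AMP by ADK. In carcinomas of the head and neck CD73 is studied as a source of immunosuppressive adenosine.

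All 10 members had at least 1 upstream window among the RefSeq promoters (GRCh38.p14), with 16 windows in all. NT5E, ADORA2B and ADA are shown because they are the members past the signal filter described below that had the treated array highest and untreated 1 lowest. The 250 bases before each start are given 5′ to 3′ on the gene's strand, with the motifs searched in capitals. For NT5E this is chr6:85449833-85450082 and for ADORA2B chr17:15944880-15945129, both on the plus strand, and for ADA chr20:44651700-44651949 on the minus strand.
NT5E: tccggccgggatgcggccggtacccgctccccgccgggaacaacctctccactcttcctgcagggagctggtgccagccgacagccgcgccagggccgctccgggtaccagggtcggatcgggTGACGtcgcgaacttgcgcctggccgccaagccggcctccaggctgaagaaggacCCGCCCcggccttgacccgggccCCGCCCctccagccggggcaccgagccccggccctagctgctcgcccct
ADORA2B: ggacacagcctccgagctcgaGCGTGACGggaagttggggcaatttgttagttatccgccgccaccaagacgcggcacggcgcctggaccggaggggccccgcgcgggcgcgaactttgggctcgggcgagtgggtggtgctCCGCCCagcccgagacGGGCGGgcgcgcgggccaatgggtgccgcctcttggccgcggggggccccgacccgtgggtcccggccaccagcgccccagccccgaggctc
ADA: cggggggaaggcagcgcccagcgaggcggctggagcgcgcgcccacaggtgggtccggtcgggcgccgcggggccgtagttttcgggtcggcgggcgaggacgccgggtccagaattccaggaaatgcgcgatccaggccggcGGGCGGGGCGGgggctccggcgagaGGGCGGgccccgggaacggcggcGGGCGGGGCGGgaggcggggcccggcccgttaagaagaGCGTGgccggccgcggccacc

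The motifs searched on both strands of these windows were GGGCGG, the GC box, TGACG, a core of the cyclic AMP response element, GCGTG, the core of the xenobiotic response element, ACGTG, a core of the hypoxia response element, and GGAATG, a TEAD site. The NT5E window held 2 GC boxes and 1 TGACG, and none of the other 3. The ADORA2B window held 2 GC boxes, 1 TGACG and 1 GCGTG, and the last pair overlap in the printed run of capitals. The ADA window held 5 GC boxes, some of them overlapping, and 1 GCGTG, but no TGACG. Of all 35116 windows of this length, 42.6% held a GC box, 21.2% a TGACG and 32.2% a GCGTG match. The hypoxia core ACGTG was present in 18.5% of all windows and in the windows of DPP4 and of 1 of the 2 starts of SLC29A1. GGAATG was present in 11.9% of all windows and in 1 window of ADK. GC made up 75.2% of the NT5E and ADORA2B windows and 80% of the ADA window, against a median of 58.0% over all windows. These matches describe the letters only.

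NT5E stood higher in the treated array than in either untreated array, on all 3 of its probe sets, and the untreated arrays themselves lay far apart. On the brightest probe set its log2 signal was 6.89 in untreated 1, 8.20 in untreated 2 and 9.03 in the treated array. Taken singly, the treated array was 4.39-fold above untreated 1 (difference 2.13) and 1.78-fold above untreated 2 (0.83). Against the untreated mean of 7.54 ± 0.92 (SD, n = 2) the difference was 1.48, or 2.79-fold. Untreated 2 exceeded untreated 1 by 1.30, so that step was larger than the one from untreated 2 to the treated array.

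The second NT5E probe set read 5.51 in untreated 1, 6.59 in untreated 2 and 6.74 after treatment. The third read 4.91 and 5.89, then 6.41. All 3 therefore had the same order, with untreated 1 lowest. The distance to untreated 2 was uneven, at 0.83 on the brightest, 0.15 on the second and 0.51 on the third. Only the second and the brightest had a mean above the filter level of 5.85, the 40th percentile of all probe sets, below which genes were left out of the counts.

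Set against the 11932 genes past that filter, 237 (1.99%) lay at least as far above both untreated arrays as NT5E. Fewer, 54 genes (0.453%), had a gap between the untreated arrays at least as wide as that of NT5E. The median absolute gap over all these genes was 0.18. NT5E was thus among the genes that differed most between arrays of the same label.

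**Figure D1:**
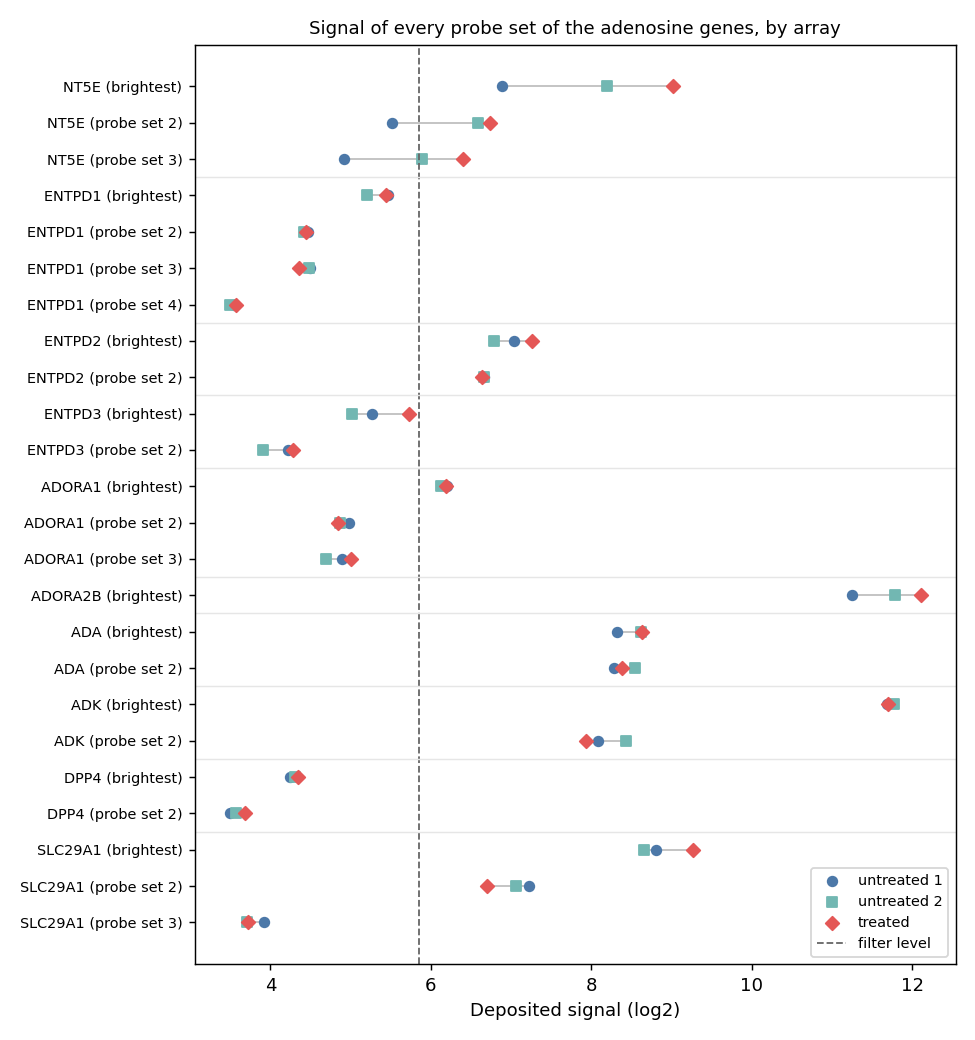
Deposited log2 signal (x axis) of each of the 24 probe sets of the 10 adenosine genes (rows, brightest first within a gene) on untreated 1 (circles), untreated 2 (squares) and the treated array (diamonds); grey lines span the 3 values and the dashed line is the filter level of 5.85. The 3 NT5E rows are the widest and share 1 order of arrays, while ENTPD1 and DPP4 lie left of the filter line throughout.

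Of the 3 ENTPD genes, only ENTPD2 passed the filter, and none was as far from the untreated arrays as NT5E. ENTPD1 (CD39) is the ATP- and ADP-degrading enzyme best known from leukocytes and endothelium. Its brightest probe set read 5.47 and 5.20 untreated and 5.44 treated, so the treated value lay between the untreated ones, below the filter. The other 3 ENTPD1 probe sets lay at untreated means of 3.52 to 4.49. No detection call could be made, so these values do not show whether ENTPD1 was expressed.

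ENTPD2, which prefers ATP over ADP, read 7.03 and 6.79 untreated and 7.26 treated on its brightest probe set. The treated array was the higher by 0.23 and 0.47, against an untreated gap of 0.24. Its other probe set gave 6.67, 6.66 and 6.64, with the treated array 0.02 below the untreated mean (−0.02). ENTPD3, another surface member of the family, read 5.27 and 5.02 untreated and 5.73 treated, 0.59 above the untreated mean. It stayed below the filter, and its second probe set differed by 0.22 from the untreated mean at signals of 3.91 to 4.28.

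Of the receptors, ADORA2B followed the order of NT5E at a smaller scale. ADORA2B, the low-affinity receptor that raises cyclic AMP through Gs, read 11.25 in untreated 1, 11.79 in untreated 2 and 12.11 in the treated array on its single probe set. The treated array was 1.82-fold above untreated 1 and 1.25-fold above untreated 2. The step between the untreated arrays (0.54) was again wider than the step from untreated 2 to the treated array (0.32). A gap between the untreated arrays as wide as this was found in 1069 of the tested genes (8.96%). ADORA1, a Gi-coupled receptor, read 6.20 and 6.13 untreated and 6.19 treated, so the treated value lay between the others. Its 2 other probe sets, both under the filter level, differed from the untreated mean by −0.07 and 0.21.

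The enzymes that remove adenosine differed little. ADA, the deaminase that turns adenosine into inosine, read 8.32 and 8.63 untreated and 8.64 treated, 0.01 above untreated 2. Its other probe set put the treated array (8.38) between the untreated ones (8.28 and 8.55). ADK, adenosine kinase, read 11.69 and 11.78 untreated and 11.70 treated, again between them. The second ADK probe set, whose suffix (_x_at) marks probes that may cross-hybridise, read 8.08 and 8.43 untreated and 7.94 treated, 0.32 below the untreated mean (−0.32). DPP4 (CD26), a surface peptidase that also anchors ADA outside the cell, read between 3.49 and 4.34 on both probe sets in all arrays, below the filter.

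SLC29A1 (ENT1), the main equilibrative nucleoside transporter, gave opposite differences on its probe sets. The brightest read 8.81 and 8.66 untreated and 9.27 treated, 1.38-fold and 1.53-fold above untreated 1 and untreated 2. The next probe set, of the cross-hybridising kind (_x_at), read 7.22 and 7.07 untreated and 6.71 treated, so the treated array was lowest there (−0.44 from the untreated mean). The third read 3.93, 3.70 and 3.72, below the filter. The mean of all SLC29A1 probe sets differed by 0.0018, so the direction depends on which probe set is read.

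Over the 7 members past the filter, 5 had the treated array above both untreated arrays (NT5E, ADORA2B, SLC29A1, ENTPD2 and ADA), none had it below both, and ADORA1 and ADK had it between. Over all tested genes 51.7% were above both and 22.5% below both. None of the 7 was 2-fold above or below both, against 0.88% of tested genes above and 0.235% below. The order untreated 1, untreated 2, treated, from low to high, was found in NT5E, ADORA2B and ADA among the 7 and in 25.6% of tested genes. The median difference from the untreated mean was 0.35 over the 7 and 0.12 over all tested genes, of which 66% lay above the untreated mean. When the tested genes of each array were centred on 1 shared median, 4 of the 7 were above both and 2 below, and the share of higher among all genes beyond both arrays went from 69.7% to 38%. By the mean of each gene's probe sets, 3 of 6 members were above both and 1 below, and that share was 55.8%. These counts rest on the contrast that chose the genes, so nothing is read from them.

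In limma's fit over all 11932 genes with Benjamini-Hochberg adjustment at 0.05, none of the 7 was called, and 0.067% of all genes were. At an unadjusted p under 0.05 the fit counted 2 of the 7 and 14.4% of all genes. The members were chosen with this contrast known, so these counts support nothing. For NT5E the standard error of its difference was 0.45 in that fit, the widest among the 7 members.

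**Figure D2:**
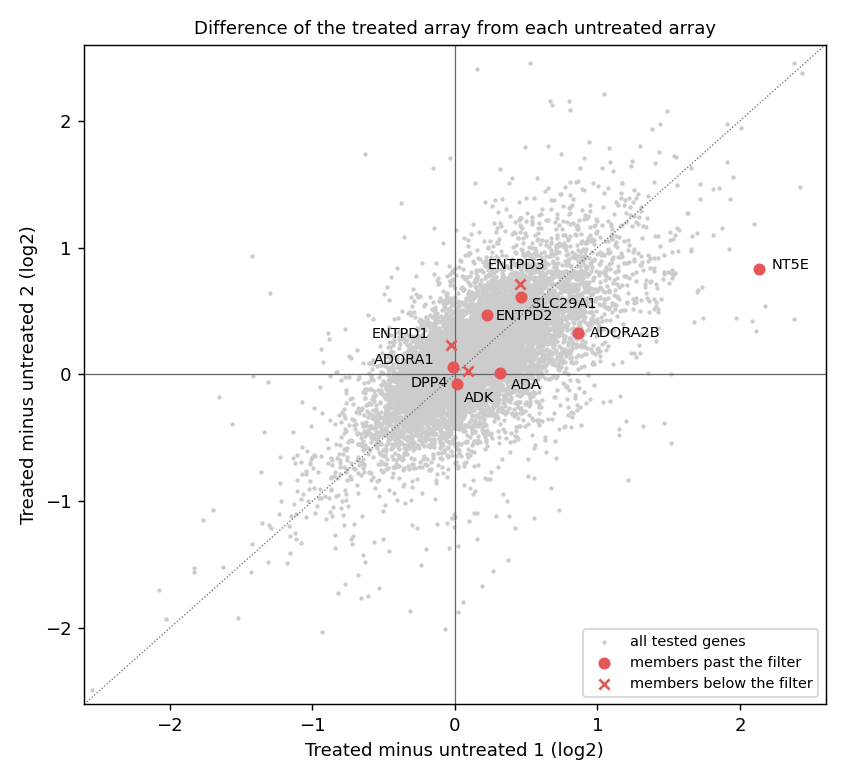
Log2 difference of the treated array from untreated 1 (x axis) and from untreated 2 (y axis) for each tested gene (grey, brightest probe set, 4 genes lie outside the axes) and for the members (red, crosses where below the filter); on the dotted line both differences are equal. NT5E lies at 2.13 and 0.83 and ADORA2B at 0.86 and 0.32, both below the dotted line, while SLC29A1 lies close to it at 0.46 and 0.61.

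The genes whose profile over the 3 arrays was nearest to that of NT5E were IL1RL1, CD68, MIG7, ETV5 and ASS1, by Euclidean distance between log2 values centred on each gene's mean (0.25 to 0.30). With 3 arrays, 2 of them of the same label, such a likeness describes an order of arrays and little else. IL1RL1, the interleukin-33 receptor, read 5.93, 7.56 and 8.11 in untreated 1, untreated 2 and the treated array. CD68, a lysosomal membrane glycoprotein abundant in macrophages, read 7.61, 8.55 and 9.53 on a probe set of the cross-hybridising kind (_x_at). ETV5, an ETS transcription factor, read 8.16, 9.20 and 9.89, and ASS1, the argininosuccinate synthase, 10.14, 11.18 and 11.85. MIG7 read 7.40, 8.93 and 9.37 on its single probe set. The other probe set of ASS1 was close in size (1.57 and 0.61 above untreated 1 and untreated 2), while that of CD68 was smaller (0.77 and 0.38). Both of these other probe sets are of the _x_at kind too. For IL1RL1 and ETV5 1 probe set each stood within 0.21 of both untreated arrays. Among the members ADORA2B was the nearest to NT5E, at a distance of 0.91 and rank 329.

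CD68 also stood in a list of leukocyte markers, and its values moved with those of NT5E across the arrays. The summed linear signal of the 6 named leukocyte markers was 564 and 652 untreated and 1139 treated, and without CD68, singled out above for its likeness to NT5E, the other 5 summed to 369, 278 and 398. PTPRC (CD45), which defines leukocytes, read 3.72, 3.72 and 3.78, below the filter level in every array, and CD3E of T cells read 6.04, 5.65 and 6.05. CD14 was 0.38 above untreated 1 and 1.25 above untreated 2, a different order of the untreated arrays from that of NT5E. The part of any such cells in the NT5E values was not tested. Fibroblast markers summed to 266 and 239 untreated and 254 treated, and endothelial markers to 526, 517 and 493. All 6 named squamous and epithelial markers passed the filter, 3 with the treated array above both untreated arrays and 2 below. KRT14 read 10.74 and 10.35 untreated and 11.49 treated, and SFN 13.43 and 13.48, then 13.96. KRT5 (13.21, 13.39 and 12.91) and EPCAM (12.74, 12.91 and 12.40) were lowest in the treated array. The size depended on the probe set. The other KRT5 probe set differed by −2.30 from the untreated mean, and the other EPCAM ones by −0.41 in the median. CDH1 differed by 0.21 on its brightest probe set and −1.33 on its other, and DSG3 by −0.09 and −0.72. KRT14 and SFN have 1 probe set each. In a bulk culture fewer cells of a type and less RNA per cell cannot be told apart.

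Other genes of purine release, breakdown and signalling were described from lists drawn up for this question, again by brightest probe set, and no gene of these lists was called by limma. Their counts stand beside 51.7% of all tested genes above both untreated arrays, 22.5% below both and a median difference of 0.12. That excess of higher genes depended on the scaling and on the probe set rule, as given above. Of the genes beyond both arrays, 69.7% were higher by brightest probe set, 38% with tested genes centred and 55.8% by the mean of probe sets. Of the 61 genes of these lists past the filter, ACP3, AMPD3 and P2RX2 had an untreated mean below the filter level. Their treated value raised the mean over all arrays past it. AMPD3 in untreated 2 (5.92) and P2RX2 in untreated 1 (5.98) were themselves above that level. Of 10 genes for ATP release 7 passed the filter, 5 with the treated array above both untreated arrays and 1 below, with a median difference of 0.52. The 1 below was SLC17A9, a vesicular transporter and not a channel, at −0.03 from the nearer untreated array. The connexin gene GJB2 read 7.17 and 7.79 untreated and 8.50 treated, in the order of NT5E. Its other probe sets differed from the untreated mean by −0.02 to 0.87. The pannexin gene PANX2 was higher by 0.93 and 0.84 than untreated 1 and untreated 2, but its 3 other probe sets had a median difference of −0.05. LRRC8A, a subunit of volume-regulated anion channels, was 0.52 above the untreated mean on its brightest probe set, and its others ranged from −1.66 to 0.20.

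Of 16 other ectonucleotidases 7 passed the filter, 6 above both untreated arrays (ACP3 among them) and none below, with a median difference of 0.51. ENTPD7, an enzyme of intracellular membranes, read 6.80 and 6.12 untreated and 7.54 treated. ENTPD4, a lysosomal and Golgi relative, read 8.74 and 8.59 untreated and 9.44 treated, and placental alkaline phosphatase (ALPP) 6.30 and 6.04, then 6.87. On their other probe sets the median difference was 0.11 for ENTPD7, −0.10 for ENTPD4 and 0.02 for ALPP, so none of these was matched in size. Of 6 other nucleoside transporters 3 passed, with SLC29A2 (ENT2) 0.51 above the untreated mean and its other probe sets at a median of −0.25.

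Inside the cell, 14 of 15 listed genes for AMP-handling nucleotidases, deaminases and adenylate kinases had a probe set naming them alone. Of these, 10 passed the filter, 6 above both untreated arrays and 2 below, with a median difference of 0.20. The AMP deaminase gene AMPD3 read 5.49 and 5.92 untreated and 6.93 treated, more than 2-fold above both as in 0.88% of all tested genes. Because its untreated mean was below the filter level, passing the filter required a treated value above that mean, so the filter fixed that direction. Its 6 other probe sets stood at a median difference of 0.15. NT5M, a mitochondrial nucleotidase, read 6.34, 6.70 and 7.25, in the order of NT5E. Adenylate kinase AK1 was 0.59 above the untreated mean and 0.25 on its other probe set. Of 9 purine salvage genes 8 passed, 4 above both and 3 below (median 0.06). The oxidase gene XDH was 0.56 and 0.58 above untreated 1 and untreated 2, and its other probe set differed by 0.74.

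Among receptors for nucleotides, 13 of 15 listed P2 genes had a probe set naming them alone. Of these, 5 passed the filter, 3 above both untreated arrays and 1 below (median 0.25). P2RX2 was among the 3, by 0.03 and with an untreated mean below the filter level. The ATP-gated channel gene P2RX4 read 7.85 and 7.98 untreated and 8.66 treated, with its other probe set at 0.10. The adenosine receptor gene ADORA3 read 4.95, 5.08 and 5.02, below the filter, and ADORA2A had no probe set naming it alone and is not used here. Of 23 cyclic AMP signalling genes, on which adenosine receptors act, 22 had a probe set naming them alone. Of these, 16 passed, 9 above both and 5 below, with a median difference of 0.11. The Gi subunit gene GNAI2 read 11.08 and 11.16 untreated and 10.12 treated, and its 6 other probe sets were lower too, from −1.12 to −0.12. The adenylate cyclase genes ADCY7 (0.90 above the untreated mean) and ADCY1 (0.96) were higher, ADCY7 with its remaining probe sets at −0.24 in the median. ADCY1 has 1 probe set, which read 6.27 and 5.58 untreated and 6.88 treated, with untreated 2 below the filter level. Of 6 relatives of DPP4, 5 passed, each above both (median 0.36, against 51.7% and 0.12 over all tested genes). DPP9 led at 7.86 and 7.80 untreated and 8.45 treated on its single probe set. DPP8 was above both by only 0.01, and its other probe set stood at −0.47 from the untreated mean. The other DPP7 probe sets ranged from −0.07 to −0.001, and the other of PREP stood at 0.10.

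**Figure D3:**
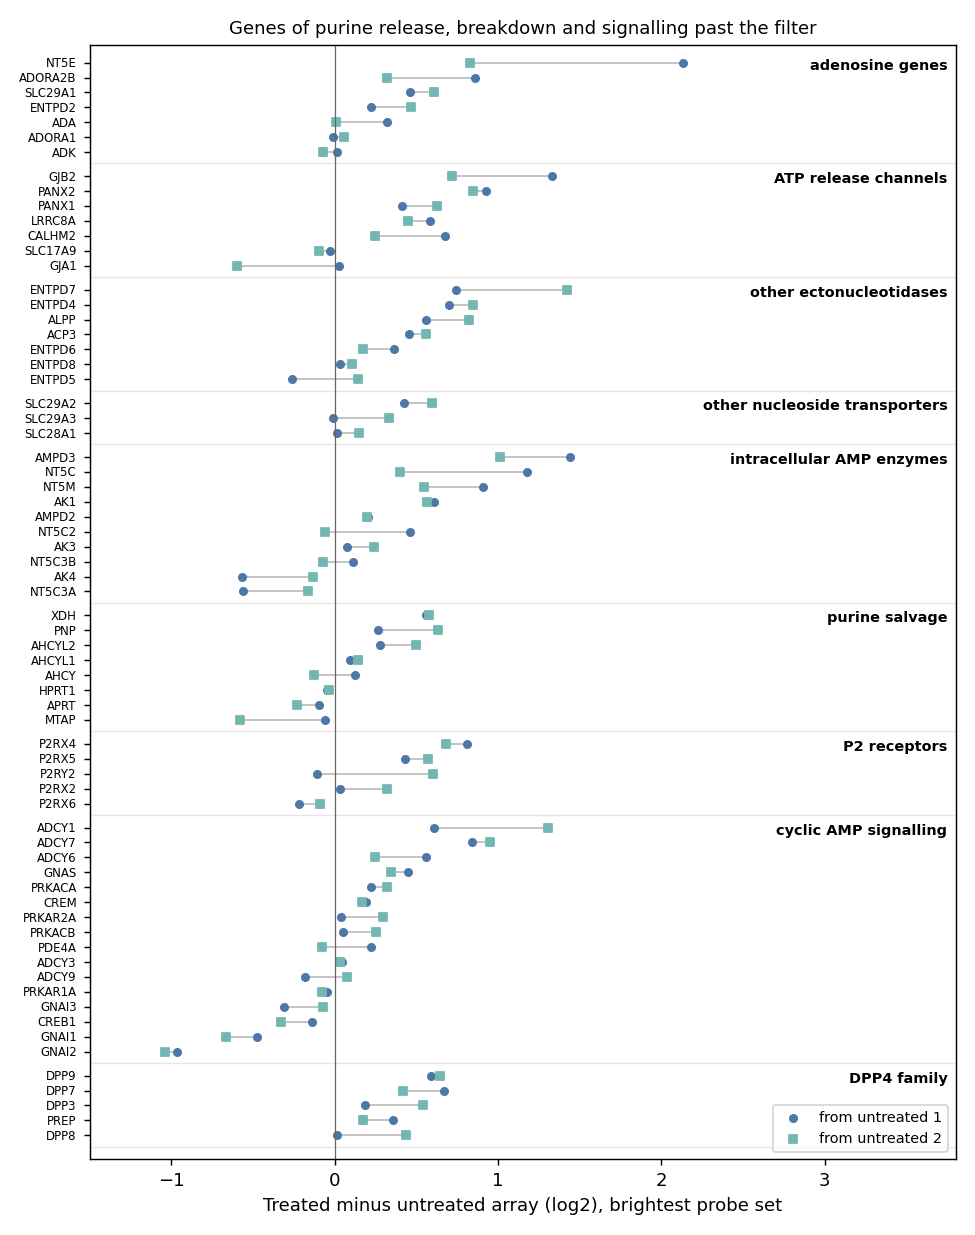
Log2 difference of the treated array from untreated 1 (circles) and from untreated 2 (squares) on the brightest probe set (x axis) for each gene past the filter, grouped by list and ordered by mean difference; a grey line joins the 2 values of a gene. A line crossing 0 marks a gene whose treated value lies between the untreated ones, as for ADK; NT5E has the longest line of its group, from 0.83 to 2.13.

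The treated array also differed from both others along transcripts. The 5′ control probe set of ACTB read 13.61 and 13.60 untreated and 12.23 treated, 2.59-fold lower, while its 3′ one read 14.19 and 14.21, then 14.40. For GAPDH the 5′ control was 1.39-fold lower and the 3′ control 0.01 lower on the log2 scale. The untreated arrays differed by at most 0.08 on these controls, although they lay 1.30 apart on NT5E. Where along its transcript each NT5E, ADK or SLC29A1 probe set lies is not used here, and the part of this 5′ difference in their values was not tested.

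**Figure D4:**
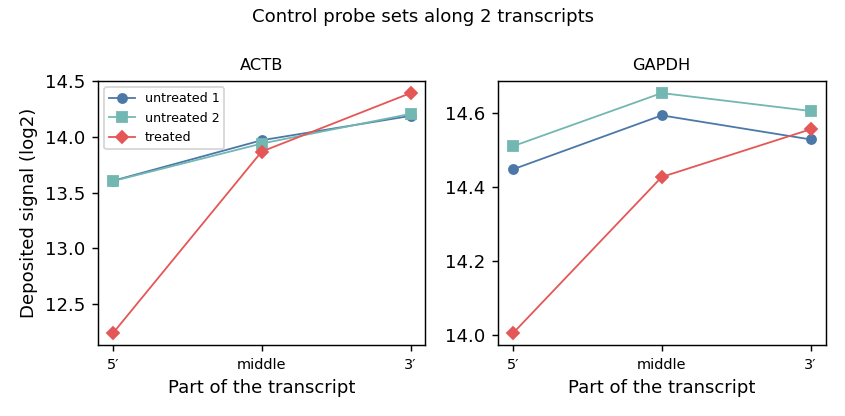
Log2 signal (y axis, a separate scale in each panel) of the array's control probe sets from the 5′ to the 3′ part (x axis) of ACTB and GAPDH on the 3 arrays. In each panel the treated array (diamonds) is lowest at the 5′ end and lies within 0.20 of the untreated mean at the 3′ end.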

How the data were processed

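Total RNA of FaDu cells was hybridised to Affymetrix PrimeView arrays, 2 untreated and 1 treated. Each deposited value is a log2 signal of 1 probe set. The authors used Affymetrix Expression Console, per the submitters' processing notes. Its version, algorithm and normalization are not stated there. Array medians were 6.62, 6.57 and 6.55. Probe sets were named by the platform annotation: of 49395, 44994 named 1 gene and 1832 several, and 2569, control probe sets included, named none.

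Each gene was read on its brightest probe set. Genes averaging less than the 40th percentile over probe sets (5.85) were dropped, and 11932 remained. limma (version 3.58.1, R version 4.3.3) was fitted on all of them, with 1 residual degree of freedom and 6.95 prior degrees of freedom, and assumes that the treated array varied like the untreated ones. In simulated arrays of 11932 genes with this design it recovered 12 of 50 genes changed 2-fold, 48 of 50 changed 4-fold and all 50 changed 8-fold or 16-fold, beside 8 unchanged genes called. The number of arrays limits the precision.

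The members, lists and tests were chosen with earlier results of these data known. Named genes are all members, up to 3 per list with the largest distance beyond both untreated arrays, and the 5 nearest to NT5E. SLC17A9, ADORA3, P2RX2, ACP3, PTPRC, KRT5, CDH1, DSG3, DPP8 and PREP are named outside this rule, after their values were seen. Promoter sequences are RefSeq's. Alternatives were other scalings, filters, probe set rules, folds and priors, and leaving out each untreated array.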

Additional observations from a re-analysis of the deposited data

How the results depend on the processing

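The NT5E difference of 1.48 was 1.48 after quantile normalisation, 1.52 and 1.28 with arrays centred over all probe sets or over the tested genes, and 1.06 as the mean of its probe sets. It ranged from 0.83 without untreated replicate 1 to 2.13 without untreated replicate 2. No member was 2-fold beyond both untreated arrays, but NT5E was at 1.5-fold (1 of 7 members, against 7.07% of all genes). Against 1 untreated array alone, 0 to 1 members were 2-fold away, against 3.2% to 3.23% of all genes. With both untreated arrays kept, the members beyond both numbered 5 of 7 after quantile normalisation, 6 of 7 under either centring, 4 of 6 by the mean of probe sets, 4 of 5 with the stricter filter and 7 of 10 without a filter, against 71.2% to 75.7% of all genes. The count called by limma was 0 of the members in all settings run, while over all genes it ranged from 3 (mean of probe sets) to 136 (arrays centred over all probe sets), and to 795 when probe sets were tested one by one. Among the probe sets called one by one, 18.9% were higher in the treated array. Of 54 alternatives run on single members other than NT5E, 43 stayed within the untreated SD. Another 8 moved by more and kept their sign, and 3 moved by more and reversed it. Leaving out 1 untreated array always shifts a difference by less than that SD, so those alternatives were bound to count as within it. The 3 reversals beyond the SD came with centring over the tested genes, which lowered the treated array against the others. They were ADORA1 −0.17, DPP4 −0.13 and ENTPD1 −0.094. Within the SD, the sign also changed for ADA under that centring (−0.03) and for ADK with arrays centred over all probe sets (0.01). Without untreated replicate 2 the sign changed for ADK (0.01), ADORA1 (−0.01) and ENTPD1 (−0.03). limma without an untreated array was not run, since no residual degree of freedom remains. A pseudocount was not needed for log2 values. No paired analysis was possible because there is 1 treated array.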
